A study of Mus musculus with 2 samples.

Results

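The miR-34 and miR-449 family of microRNAs was measured at 6 loci, Mir449a, Mir449b, Mir449c, Mir34b, Mir34c and Mir34a, among the 1973 miRNA genes counted in each library. The loci were taken by name, through their Ensembl identifiers, whatever their level, and all 6 had a row. The libraries held microRNAs sequenced from total RNA of the forebrain of B6NCrl mice on postnatal day 0. One forebrain of pup 3 gave replicate 2, and one of pup 1 gave replicate 1, so the series is 1 group of 2 animals with no treatment and no mutant. The donor entry is the same for the 2 animals, and sex was not recorded. The measurements are therefore the level of each locus, its spread over 2 animals, and the difference between these libraries.

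MicroRNAs are cut from hairpin precursors and repress messenger RNAs that pair with their seed, the bases near the 5′ end that lead target recognition. The miR-449 and miR-34b/c clusters are strongly expressed in multiciliated cells, which in the brain line the ventricles as ependyma and cover the choroid plexus. Mice that lack both clusters form fewer motile cilia. Mir34a stands apart in that it is made in many cell types. It is transcribed from a gene of its own and is induced by p53, and neither trait is claimed here for Mir34a alone. In bulk tissue, fewer cells of a type and less RNA per cell cannot be told apart.

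The sequences below show what the family has in common, and are from RefSeq on build GRCm38.p6, written 5′ to 3′ with the seed, bases 2 to 8, in capitals. Of the 6 loci, 5 matched the table, with 4 sequences of the 5′ arm and 5 of the 3′ arm. The table had no entry for Mir449b or for miR-34c-5p, so their sequences are not shown and their seeds were not examined. The 5′ arms carry the same seed:
miR-449a-5p (chr13:113037549-113037570, plus strand): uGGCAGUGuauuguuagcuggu
miR-449c-5p (chr13:113036008-113036028, plus strand): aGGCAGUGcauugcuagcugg
miR-34b-5p (chr9:51103610-51103632, minus strand): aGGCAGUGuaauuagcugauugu
miR-34a-5p (chr4:150068473-150068494, plus strand): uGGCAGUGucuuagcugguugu
Among the 1738 mature entries of the table, these 4 were the ones with that seed, a search that could not cover Mir449b or miR-34c-5p. Beyond it they are alike in part. Counted from base 1 without gaps, miR-449a-5p matched miR-449c-5p at 18 of 21 bases and miR-34a-5p at 15 of 22. On the same count miR-34b-5p matched miR-34a-5p at 11 of 22. Such a count misses stretches that are shifted by a base. The longest run shared after the seed was 9 bases for miR-34a-5p and miR-449a-5p. It was 7 bases for miR-34a-5p and miR-34b-5p, and 7 for miR-449a-5p and miR-449c-5p.

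The seeds of the 3′ arms differ more. Those of Mir34b and Mir34c share a seed with each other and with no other entry, while those of Mir449a, Mir449c and Mir34a each have a seed of their own:
miR-34b-3p (chr9:51103574-51103595, minus strand): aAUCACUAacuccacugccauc
miR-34c-3p (chr9:51103044-51103065, minus strand): aAUCACUAaccacacagccagg
miR-449a-3p (chr13:113037589-113037610, plus strand): cAGCUAACaugcgacugcucuc
miR-449c-3p (chr13:113036049-113036070, plus strand): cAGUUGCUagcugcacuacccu
miR-34a-3p (chr4:150068517-150068537, plus strand): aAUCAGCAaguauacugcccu
The deposited tables give a count per hairpin locus, so the arms cannot be told apart in the values that follow. Among the 1005 hairpins of the table, the longest run that a family hairpin shares with another was 14 bases (Mir449a with Mir679), shorter than the mature sequences of 21 to 23 bases. Mir449b was not compared, and matches with mismatches or in the rest of the genome were not searched.

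The loci lie in 3 places of the mouse genome (GRCm38, annotation GENCODE M21). Mir449c (chromosome 13, 113035983 to 113036091), Mir449b (113037419 to 113037498) and Mir449a (113037534 to 113037624) follow each other on the plus strand within 1642 bases, in introns of Cdc20b, a gene activated with the ciliation program. Mir449b ends 35 bases before Mir449a begins. The coding gene Mcidas, whose product multicilin starts multiciliated cell differentiation, ends 34716 bases before Cdc20b begins. Mir34b (chromosome 9, 51103562 to 51103645) and Mir34c (51103034 to 51103110) lie 451 bases apart on the minus strand, within a Btg4 intron but against the direction of Btg4. Mir34a (chromosome 4, 150068454 to 150068555, plus strand) lies in no coding gene, and the last 17 bases of its hairpin overlap the unclassified transcript Gm37795. The predicted folding energies of the hairpins (RNAfold) were −44.5 kcal/mol for Mir449a, −41.8 for Mir449c, −33.1 for Mir34b, −29.8 for Mir34c and −42.6 for Mir34a. Per base, Mir449a had the lowest energy of the folded hairpins, −0.489 kcal/mol over 91 bases, and Mir449c the highest, −0.383 over 109 bases. A relation between folding energy and level was not tested.

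**Figure D1:**
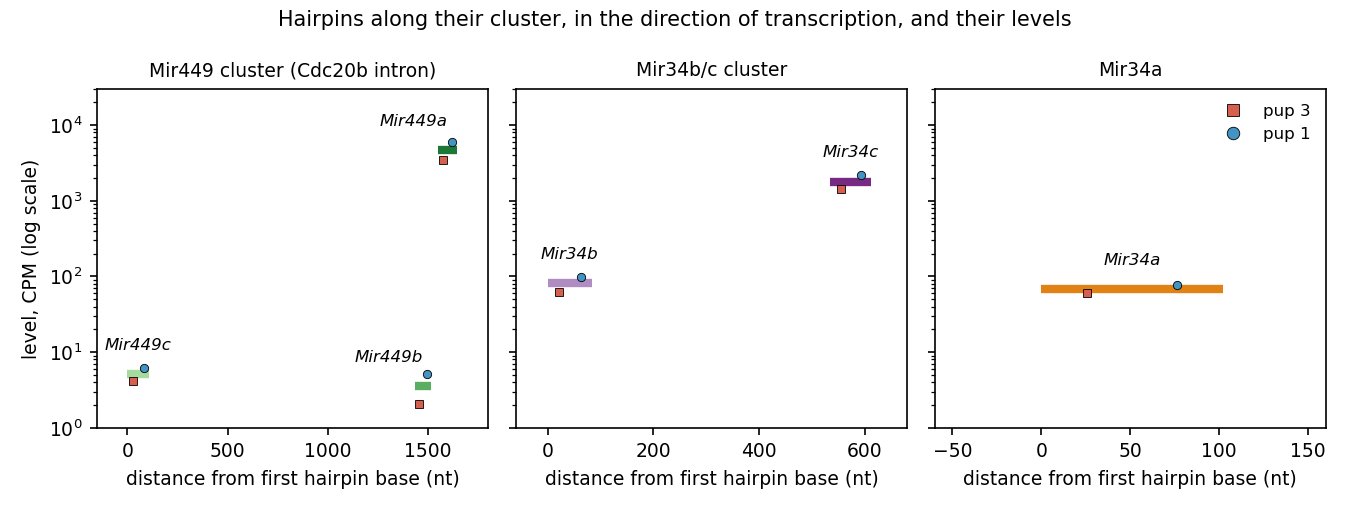
Hairpins of each cluster in the direction of transcription (horizontal axis, nucleotides from the first hairpin base) against their level in CPM (vertical axis, log scale). Coloured bars span the hairpin at the mean of both pups, squares are pup 3 and circles pup 1; Mir449a and Mir449b are 35 bases apart and stand at 4676 and 3.58 CPM.

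Reads on the strand of a miRNA gene totalled 2427066 in pup 3 and 2742746 in pup 1, which sets the precision of each value. Levels are given in CPM, counts scaled to a total of 1000000 of these reads, and a count of 0 would allow up to 3 counts, or 1.24 CPM in pup 3 and 1.09 CPM in pup 1. Intervals are exact Clopper-Pearson intervals at 95% and cover counting error only, since no molecular identifiers are named and copies made by PCR are counted as reads. Reads that map to several places, 44.1% of all reads in pup 3 and 42.2% in pup 1, are counted at no locus. Small RNA ligation favours some sequences, so levels of different loci are compared less safely than a locus between libraries. The counts of the pups differed by more than sampling noise, with a chi-square of 209 per degree of freedom over 331 loci, and were kept as 2 samples.

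The family was present at a high level through Mir449a and Mir34c. Mir449a, the main product of the Cdc20b cluster, had 3430 CPM in pup 3 (8324 counts, interval 3356 to 3504 CPM) and 5923 CPM in pup 1 (16245 counts, 5832 to 6014 CPM), a mean of 4676 ± 1763 CPM (SD, n = 2). It stood at rank 51 of all loci in pup 3 and at rank 32 in pup 1. Mir34c, the main product of the chromosome 9 cluster, had 1428 CPM in pup 3 (3467 counts) and 2163 CPM in pup 1 (5932 counts), a mean of 1796 ± 519 CPM (SD, n = 2). In each pup Mir449a was the higher of the pair, and its interval lay clear of that of Mir34c.

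Mir34b and Mir34a stood far below these loci and close to each other. Mir34b, which shares its 3′ seed with Mir34c, had 62.2 CPM in pup 3 (151 counts) and 99.9 CPM in pup 1 (274 counts), a mean of 81.1 ± 26.6 CPM (SD, n = 2). Mir34a, which is made in many cell types, had 59.7 CPM in pup 3 (145 counts) and 76.9 CPM in pup 1 (211 counts), a mean of 68.3 ± 12.2 CPM (SD, n = 2). The difference between their means was smaller than the SD of Mir34b and about as large as that of Mir34a. The ratio of Mir34b to Mir34a was 1.04 in pup 3 (interval 0.824 to 1.32) and 1.30 in pup 1 (1.08 to 1.56), so Mir34b was the higher in pup 1, and the order could not be told in pup 3 at this depth.

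The other loci of the Cdc20b cluster had few counts. Mir449c had 10 counts in pup 3 (4.12 CPM, interval 1.98 to 7.58) and 17 counts in pup 1 (6.20 CPM, 3.61 to 9.92), a mean of 5.16 ± 1.47 CPM. Mir449b had 5 counts in pup 3 (2.06 CPM, interval 0.669 to 4.81) and 14 counts in pup 1 (5.10 CPM, 2.79 to 8.56), a mean of 3.58 ± 2.15 CPM. Their intervals overlap in each pup, so they could not be ordered. With a minimum of 10 counts in both libraries 5 of the 6 loci were detected, and Mir449b was not. Of the 12 values of the opposite strand, 1 was above 0, with 1 count at Mir34b in pup 3.

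**Figure D2:**
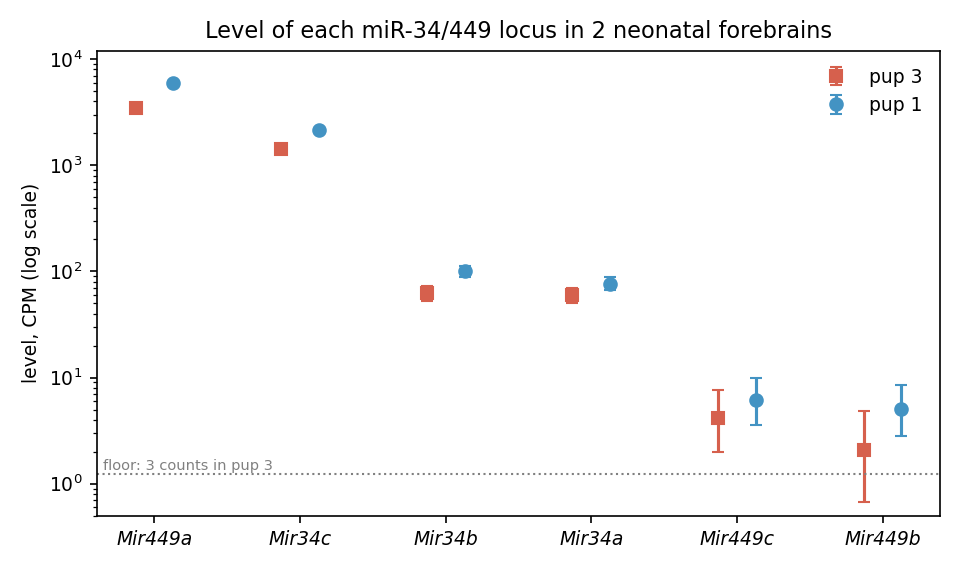
Level of each locus in CPM (vertical axis, log scale), with squares for pup 3, circles for pup 1 and exact 95% intervals as bars, which cover counting error only. Mir449a and Mir34c stand at 1428 CPM or more, Mir34b and Mir34a between 59.7 and 99.9 CPM, and Mir449c and Mir449b at 6.20 CPM or less.

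Within each cluster a single hairpin held nearly all counts, in both animals alike. Mir449a held 99.8% of the counts of its cluster in pup 3 (interval 99.7 to 99.9%) and 99.8% in pup 1 (99.7 to 99.9%). Mir449c stood 832-fold below it in pup 3 (interval 452 to 1736) and 956-fold below it in pup 1 (597 to 1641). Mir449b, whose hairpin lies next to that of Mir449a, stood 1665-fold below it in pup 3 (713 to 5129) and 1160-fold below it in pup 1 (691 to 2123). In the chromosome 9 cluster Mir34c held 95.8% of the counts in pup 3 (interval 95.1 to 96.5%) and 95.6% in pup 1 (95.04 to 96.1%). The ratio of Mir34c to Mir34b was 23.0 in pup 3 (19.5 to 27.2) and 21.6 in pup 1 (19.2 to 24.5). The first ratio was 1.06 times the second, with an exact conditional interval of 0.862 to 1.31, so the ratio of these neighbours did not differ between the libraries beyond counting error.

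The ciliary clusters made up almost all of the family. The 5 loci of these clusters held 98.8% of the family's counts in pup 3 (interval 98.6 to 98.99%) and 99.1% in pup 1 (98.9 to 99.2%). Mir34a held the rest, 1.20% in pup 3 (1.01 to 1.41%) and 0.930% in pup 1 (0.809 to 1.06%). The Mir449 cluster alone held 68.9% in pup 3 (68.1 to 69.7%) and 71.7% in pup 1 (71.1 to 72.3%), and the Mir34b/c cluster held 29.9% in pup 3 (29.1 to 30.7%) and 27.3% in pup 1 (26.8 to 27.9%). Together the 6 loci held 0.499% of all counts of pup 3 and 0.827% of those of pup 1.

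Set against Mir34a, which shares the seed but not the multiciliated pattern, the ciliary loci together were lower in pup 3. The 5 loci had 82.5 counts for each Mir34a count in pup 3 (interval 70.01 to 97.8) and 106.6 in pup 1 (93.0 to 122.6). The ratio in pup 3 was 0.774 times that in pup 1, with an exact conditional interval of 0.623 to 0.964. For the Mir449 cluster this fold was 0.746 (0.600 to 0.929), and for the Mir34b/c cluster 0.848 (0.681 to 1.06), an interval that holds 1. The clusters also differed from each other. The Mir449 cluster had 2.30 counts for each count of the Mir34b/c cluster in pup 3 (2.22 to 2.40) and 2.62 in pup 1 (2.55 to 2.70), a fold of 0.879 (0.837 to 0.923). These folds need no library size. They compare 1 animal with 1 animal, and their intervals leave out the variation between animals.

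**Figure D3:**
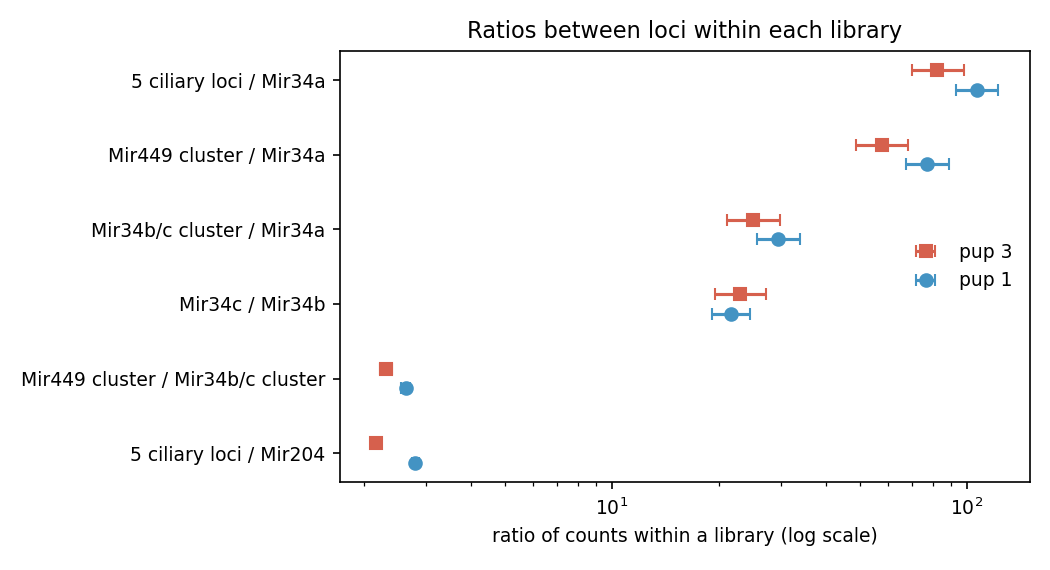
Ratio of counts between loci or clusters within a library (horizontal axis, log scale), with squares for pup 3, circles for pup 1 and exact 95% intervals as bars. The ratio of the 5 ciliary loci to Mir34a is 82.5 in pup 3 and 106.6 in pup 1, while that of Mir34c to Mir34b is 23.0 in pup 3 and 21.6 in pup 1.

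All 6 loci had a lower level in pup 3 than in pup 1, but so did most loci of the libraries. A two-sided Fisher's exact test, which sets each locus against all other counts and was adjusted by Benjamini-Hochberg over the 400 loci with at least 10 summed counts, compares these libraries, not conditions. It called 4 of the 6 loci lower in pup 3, Mir449a, Mir34c, Mir34b and Mir34a, and it called 46.2% of all tested loci lower (185 of 400). That share is high, so the count by itself sets the family little apart. The log2 ratio of CPM + 1, pup 3 over pup 1, had a median of −0.64 over the 6 loci and of −0.31 over all tested loci. The calls also rest on counting error alone. The biological coefficient of variation between the pups was 0.251, the square root of edgeR's common dispersion over the 400 loci with library totals.

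The loci of the ciliary clusters lay below that median and Mir34a lay near it. Mir449a had a log2 ratio of −0.79, with a p-value too small to be computed. Of the 331 loci detected in both pups, 33 had a lower ratio than Mir449a. Mir34c had a log2 ratio of −0.60 (adjusted Fisher's exact p = 2.48e-85), and 71 of the 331 loci were lower. Mir34b had a log2 ratio of −0.67 (adjusted Fisher's exact p = 5.54e-06), and 50 loci were lower. Mir34a had a log2 ratio of −0.36 (adjusted Fisher's exact p = 0.0350), and 142 loci were lower. Mir449b (−0.996, adjusted Fisher's exact p = 0.163) and Mir449c (−0.49, p = 0.435) did not pass, with too few counts to show a difference of this size.

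**Figure D4:**
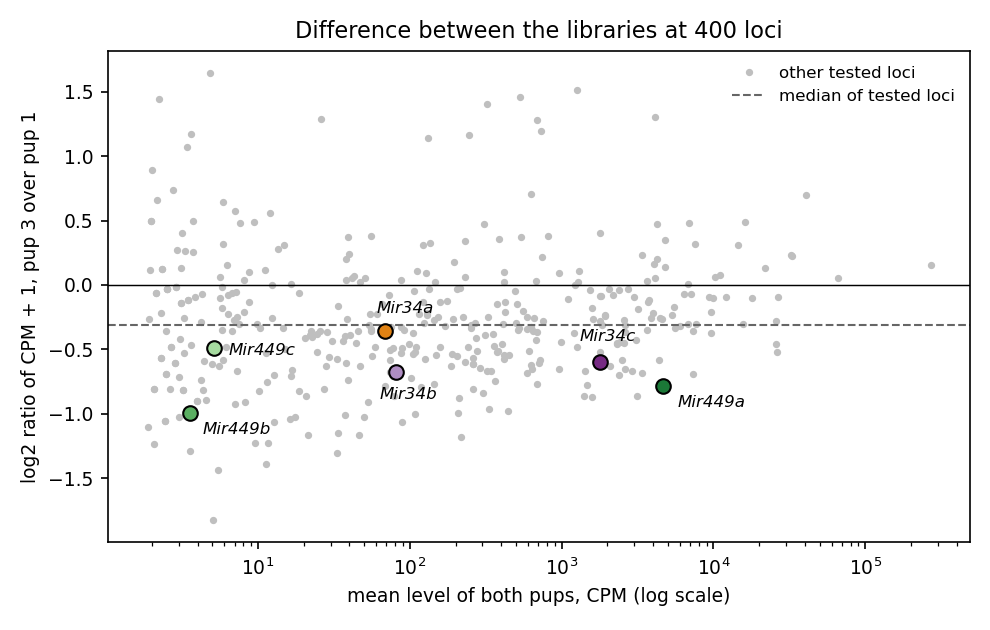
Log2 ratio of CPM + 1, pup 3 over pup 1 (vertical axis), against the mean level in CPM (horizontal axis, log scale) for the 400 tested loci. Family loci are coloured and named, grey points are the others, and the dashed line is the median of −0.31; Mir34a lies beside that line and Mir449a at −0.79 below it.

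The scale decided the call of Mir34a and of none of the others. With DESeq2 size factors, which move the median of the tested loci to −0.02, the exact binomial test called 3 of the 6 loci lower, against 20.8% of all tested loci. Mir449a had −0.47 (adjusted exact binomial p = 1.63e-134), Mir34c −0.28 (p = 8.10e-20) and Mir34b −0.37 (p = 0.0284). Mir34a had −0.05 and did not pass (adjusted exact binomial p = 0.897). TMM scaling called the same 3 loci, against 26% of all tested loci, with Mir34b at −0.43 (adjusted exact binomial p = 0.00783) and Mir34a at −0.11 (p = 0.639). Mir34a also failed to pass with library totals once every locus with a count was tested (adjusted Fisher's exact p = 0.0584) or Mir99a, the most abundant locus, was left out (p = 0.0867).

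**Figure D5:**
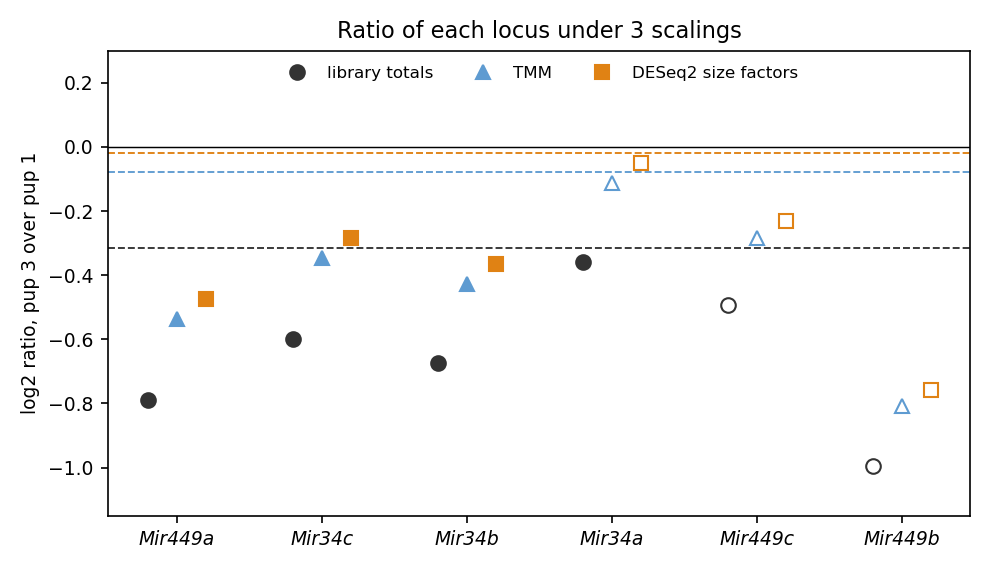
Log2 ratio of each locus, pup 3 over pup 1 (vertical axis), with library totals (circles), TMM (triangles) and DESeq2 size factors (squares). Filled symbols passed the test, open ones did not, and dashed lines are the medians of all tested loci; Mir34a is filled only with library totals, at −0.36.

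Markers of epithelial cells moved in either direction between the libraries. The choroid plexus is itself covered by multiciliated cells, so its markers do not stand for a separate cell type. Mir204, which is abundant in choroid plexus epithelium, had 2273 CPM in pup 3 and 2931 CPM in pup 1, a log2 ratio of −0.37 (adjusted Fisher's exact p = 1.01e-47). With size factors it had −0.05 and did not pass. Its paralog Mir211 had 16 counts in pup 3 and 19 in pup 1, and did not pass. The list of both loci summed to 0.228% of counts in pup 3 and 0.294% in pup 1, with 1 of 2 loci lower, near the 46.2% of all tested loci.

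The epithelium list went the other way. Its 7 loci, led by Mir429 of the miR-200 family, summed to 1.06% in pup 3 and 0.493% in pup 1, with 5 of 7 higher, none lower, and a list median of 1.28. With size factors 6 were higher, against 24.5% of all tested loci. Mir429 had 5822 CPM in pup 3 and 2361 CPM in pup 1. The lowest locus, Mir205, had 21.01 CPM in pup 3 and 27.7 CPM in pup 1 and did not pass. All 3 loci of the sensory and pineal list, Mir182, Mir183 and Mir96, were higher in pup 3 on either scale, with a list median of 1.20. Mir182 had 1021 CPM in pup 3 and 444.8 CPM in pup 1. Across all tested loci 10.2% were called higher with library totals and 24.5% with size factors. The part of these lists in the differences at the ciliary clusters was not tested.

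Calls in the remaining lists are set against 10.2% higher and 46.2% lower over all tested loci with library totals, and 24.5% higher and 20.8% lower with size factors. Of 9 loci of p53 response listed beside the family, 7 were tested, 2 were higher and 4 lower with library totals, with a median of −0.22, and with size factors 3 were higher and 1 lower, with a median of 0.09. The highest, Mir15a, had 8063 CPM in pup 3 and 5762 CPM in pup 1, and the lowest of those detected, Mir194-2, had 61.4 CPM in pup 3 and 87.5 CPM in pup 1. The neuron list summed to 4.24% of counts in pup 3 and 4.73% in pup 1, with 2 of 8 tested loci higher and 5 lower, or 4 higher and 2 lower with size factors. Its highest locus, Mir137, had 23308 CPM in pup 3 and 28264 CPM in pup 1. The labelled neural tissue was thus marked in both libraries. The lowest detected locus of the list, Mir124a-1, had 8.65 CPM in pup 3 and 5.47 CPM in pup 1. The list also holds Mir124a-2 and Mir124a-3, which were not detected. Any read placed equally well at more than 1 of these loci would be missing from every count. These values therefore do not give the level of miR-124, and the sum of the list may be too low. Of 4 blood loci with a row, 1 was lower, Mir451a, with 90 counts in pup 3 and 140 in pup 1, a call lost with size factors. Mir144, Mir486 and Mir223 did not pass with library totals, Mir223 was higher with size factors (log2 ratio 0.34, adjusted exact binomial p = 0.00397), and Mir142 had no row matched. Of 3 vessel loci, Mir126a was higher in pup 3, while Mir143 and Mir145a were lower with library totals, and with size factors Mir143 was higher and Mir145a did not pass. The vessel list summed to 3.94% in pup 3 and 3.50% in pup 1.

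At like levels few loci fell as far as Mir449a. Of 47 detected loci within 2-fold of its mean level, 1 had a lower ratio, Mir153, a miRNA of synapses, with 2237 CPM in pup 3 and 4077 CPM in pup 1. Mir153 (−0.87), Mir7b (−0.70) and Mir127 (−0.69) were the 3 of these nearest in ratio. Of 47 loci within 2-fold of Mir34c, 11 had a lower ratio, and the nearest were Mir541 (−0.58), Mir154 (−0.63) and Mir1298 (−0.65). Of 66 loci within 2-fold of Mir34a, 33 had a lower ratio. The nearest were Mir155 (−0.36), Gm23450 (−0.36) and Mir669c (−0.35). Likeness here is the difference in log2 ratio over 2 libraries, a single number for each locus.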

How the data were processed

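MicroRNA libraries of 2 single forebrains, pup 3 and pup 1, were used. The authors deposited raw read counts per miRNA gene, not normalized. Assembly mm10 and annotation M4 are stated per the labels and a deposited text, with aligner and counter not given in the sources used here. Of the 3 count columns, the one read from its layout and values as the gene strand was used, without the 4 rows that name no gene. Of the counts on either strand it held 98.1% in pup 3 and 97.6% in pup 1, and of all reads 41.3% and 41.2%. Names came from GENCODE M21, which matched 1894 of 1973 rows.

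With 1 library on each side, edgeR's quasi-likelihood test has no residual degrees of freedom, so Fisher's exact test with Benjamini-Hochberg adjustment at 0.05 was run over all loci with at least 10 summed counts, and exact binomial tests with TMM (edgeR) or DESeq2 scaling. Fisher's test was run on simulated counts with and without planted differences, and the binomial test on those without them, with library totals only. The simulated counts held counting error alone, less variation than between the pups, so they do not give the rate of false calls here. Log2 ratios have a pseudocount of 1 CPM. Ratios within a library have exact intervals at 95%, and folds between libraries exact conditional intervals. All 6 members were named, with loci of other lists by rule (all of lists of at most 5, otherwise the highest and the lowest detected) and the 3 loci nearest in ratio. Members and lists were chosen with earlier results of these data known. Alternatives were both strands, other filters, pseudocounts and denominators, and leaving out a replicate. R 4.3.3 ran edgeR 4.0.16 and DESeq2 1.42.0. Python 3.11.15 ran scipy 1.17.1, pandas 2.3.3, matplotlib 3.10.9 and numpy 2.4.6, and hairpins were folded with RNAfold 2.7.2.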

Additional observations from a re-analysis of the deposited data

How the results depend on the processing

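The share of the 6 loci, 0.663% of the counts, was 0.903% with Mir99a left out of the total and 0.273% of all reads of a library, and ran from 0.499% (pup 3) to 0.827% (pup 1) with a replicate left out. With a replicate left out, the 5 ciliary loci held 98.8 to 99.1% of the family's counts, and the ratio of Mir34c to Mir34b ran from 21.6 to 23.0. Counting both strands moved none of these by as much as the spread between the pups. Over all loci, 41 were higher and 185 lower in pup 3 with library totals, against 82 and 104 with TMM and 98 and 83 with DESeq2 size factors. Log2 ratios of the 6 loci kept their sign under every scaling, filter and pseudocount run, and Mir34a was the only locus whose call was lost. At a minimum of 50 summed counts Mir449b and Mir449c were not tested. No paired analysis was possible because the series has 1 group. Depth limits Mir449b and Mir449c.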

Other observations

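The ratio of Mir34a to Mir204, the choroid plexus locus, did not differ between the libraries beyond counting error, an observation made after their values were seen. Both loci had log2 ratios near the median of all tested loci (−0.31), −0.36 for Mir34a and −0.37 for Mir204. Other loci had like values, such as Mir155 (−0.36) and Mir26b (−0.37), so the match is not particular to this pair. A link between Mir34a and choroid plexus was not tested. Mir34a had 0.0263 counts for each Mir204 count in pup 3 (exact interval 0.0221 to 0.0310) and 0.0262 in pup 1 (0.0228 to 0.0301), a fold of 1.00 with an exact conditional interval of 0.803 to 1.25. The 5 ciliary loci had 2.17 counts for each Mir204 count in pup 3 (2.099 to 2.24) and 2.80 in pup 1 (2.73 to 2.87), a fold of 0.775 (0.744 to 0.807). The Mir449 cluster had a fold of 0.747 (0.715 to 0.780) and the Mir34b/c cluster one of 0.849 (0.805 to 0.896) on the same base. The intervals cover counting error in 1 animal on each side.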
